A study of Bos taurus with 2 samples.

Results

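The expression of 9 genes known as markers of the hypoblast was examined in bovine embryos injected with siRNA against CDKN1C and in sham-injected embryos, 1 pool of each. The hypoblast, or primitive endoderm, is the layer of the blastocyst inner cell mass that later lines the blastocoel and forms the yolk sac. The genes were taken by their symbols from a fixed list, GATA6, GATA4, SOX17, PDGFRA, HNF4A, FOXA2, CUBN, AMN and DAB2. No value of theirs enters the rule, but the list was chosen with earlier results of these data known. All 9 were found, each at 1 locus, among the 21209 gene symbols of the files. The embryos of both pools came from in vitro fertilization of oocytes from cow ovaries. Zygotes of the first pool received siRNA against CDKN1C, an imprinted gene encoding a cell-cycle inhibitor, and those of the second pool were pierced by the needle without siRNA, as a control for mechanical damage. The study's text says that several siRNA concentrations were tried, that 1 was selected for further CDKN1C injections, and that blastocysts were collected. It does not state dose, stage or number of embryos separately for the sequenced pools, and non-injected embryos were not analysed here. The comparison asks how the embryo transcriptome differed after injection of siRNA against CDKN1C. The pools differ both in CDKN1C knockdown and in having received any siRNA, and these cannot be told apart here.

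In the mouse, inner cell mass cells first carry both GATA6 and the epiblast factor NANOG, and signalling through FGF4 and its receptors favours GATA6 and the hypoblast fate over the epiblast. GATA6, GATA4, SOX17, FOXA2 and HNF4A are transcription factors of this lineage, which there come on one after another. PDGFRA is a receptor on the surface of its cells. CUBN, AMN and DAB2 act in its uptake of nutrients: cubilin binds ligands such as vitamin B12 bound to intrinsic factor, amnionless brings cubilin to the membrane, and DAB2 is a clathrin adaptor for such receptors.

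Each pool is 1 library, so no value has a replicate error, and no test or p-value between the pools can be given. The values are FPKM, a number of fragments divided by transcript length and by a library-wide factor, which puts the genes of a pool on 1 scale. The RNA was amplified before sequencing, and how far this shifts the levels of genes relative to each other was not tested. The FPKM values carry no read number, so the sequencing depth is unknown and a value of 0 sets no upper limit. CDKN1C itself was 14.6 FPKM in the CDKN1C siRNA pool, against 49.5 FPKM in the sham pool, and thus 3.40-fold lower in the library labelled as its knockdown. The total over all loci was 1.32-fold larger in the sham pool. Of the 21209 symbols, 14039 were above 0 in the injected pool and 14813 in the sham pool, and 25.6% were at 0 in both.

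A gene was taken as expressed when its mean over the pools was 1 FPKM or more, and 4 of the 9 genes, DAB2, GATA6, PDGFRA and HNF4A, reached this. SOX17 and AMN were listed at 0 in both pools, and GATA4, CUBN and FOXA2 lay under 0.2 FPKM in each. The order of levels in the injected pool was DAB2, GATA6, PDGFRA, HNF4A, FOXA2 and CUBN. In the sham pool it was DAB2, GATA6, HNF4A, PDGFRA, FOXA2, GATA4 and CUBN. DAB2 and GATA6 thus held the top places in both pools, while HNF4A and PDGFRA stood in opposite order. DAB2 made up 70.6% of the summed FPKM of the 9 genes in the injected pool and 61.4% in the sham pool. That sum was 61.0 FPKM with CDKN1C siRNA and 50.4 FPKM with sham injection, a ratio of 1.21 in a sum made up mostly of DAB2. These whole-embryo pools cannot tell apart a different number of hypoblast cells, a different amount of RNA per cell and RNA of other cells. This holds for genes higher or lower in either pool, and trophectoderm is among those other cells. The label therefore describes the list and not a detected cell population: 4 genes were expressed, and the defining factors SOX17 and GATA4 were at or near 0.

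**Figure D1:**
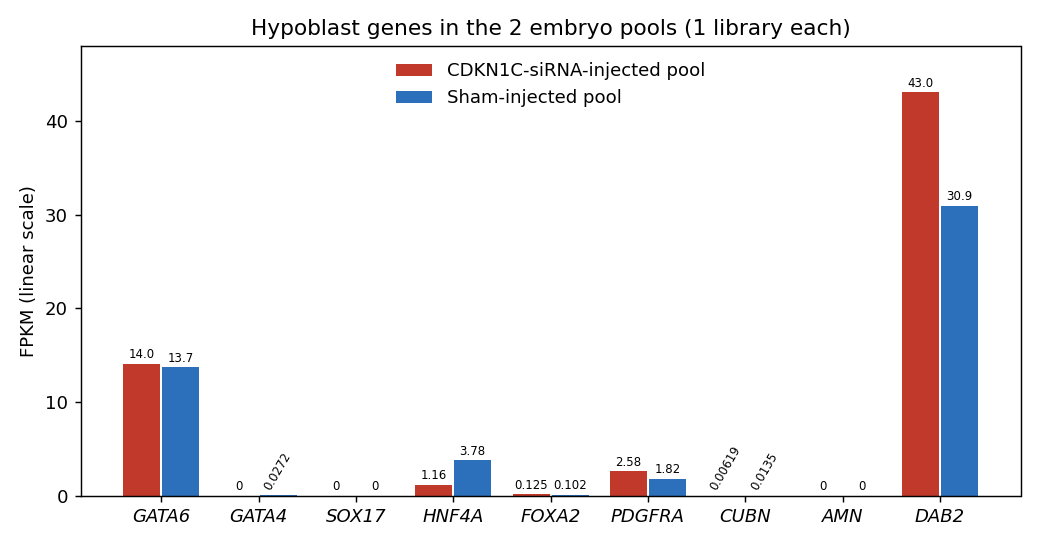
FPKM (vertical, linear scale from 0) of the 9 hypoblast genes in the CDKN1C-siRNA-injected pool (red) and the sham-injected pool (blue), 1 library each, with no error bars. The values above the bars are FPKM: DAB2 and GATA6 stand above the others in both pools, HNF4A is 1.16 in the injected pool and 3.78 in the sham pool, and SOX17 and AMN are at 0.

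The difference of a gene was its log2 ratio, siRNA-injected to sham-injected, with 1 FPKM added to each level, which understates the difference of genes with low values. On this scale, 0 of the 4 expressed genes were 2-fold or more higher in the injected pool and 1, HNF4A, was 2-fold or more lower. Of all 7984 expressed genes, 4.92% were 2-fold or more higher and 15.7% as much lower, and 1 lower gene of 4 is to be read against that share. The median difference of the 4 genes was 0.19, against -0.17 over all 7984 genes. With totals made equal, 11.4% of all genes were 2-fold or more higher and 7.10% as much lower, the median of all genes was 0.16, and 0 of the 4 hypoblast genes was past 2-fold in either direction.

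GATA6, the zinc finger factor that starts the hypoblast programme in the mouse, had nearly the same FPKM in both pools as deposited. It lies on chromosome 24 of bosTau7, the genome build of the files, from 34933092 to 34963571. Its level was 14.0 FPKM in siRNA-injected embryos, against 13.7 FPKM in sham-injected embryos, a ratio of 1.02 and a log2 difference of 0.03. Equal totals made the ratio 1.35 and the difference 0.40. This placed it above 88.3% of all symbols in the injected pool and above 86.8% in the sham pool. Among its 500 nearest genes by mean level, from 11.9 to 16.2, the median difference was -0.21, and 197 were as high as GATA6 or higher.

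HNF4A, a nuclear receptor of visceral endoderm and liver, differed most. It lies on chromosome 13 from 73526967 to 73556511. Its level was 1.16 FPKM in the CDKN1C siRNA pool, against 3.78 FPKM in the sham pool. This is 3.26-fold lower with siRNA as a ratio of FPKM, and a log2 difference of -1.15 after adding 1. With totals made equal it was 2.48-fold lower as a ratio, and the difference was -0.84. Among the 500 genes nearest in mean FPKM, from 2.19 to 2.79, 43 were as low or lower, and their 10th and 90th percentiles were -1.10 and 0.75. HNF4A thus lay just below the range that holds most genes of its level. Over all 7984 genes, 924 were as low or lower, which is 11.6%. CDX2, a trophectoderm factor of almost the same mean FPKM, was 1.19 FPKM with CDKN1C siRNA and 3.76 FPKM with sham injection, and thus differed by nearly the same amount as HNF4A.

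GATA4, the relative of GATA6 that follows it in the mouse hypoblast, was listed at 0 in the injected pool and at 0.0272 FPKM in the sham pool. Its locus is on chromosome 8 from 7498916 to 7547323. SOX17, an HMG box factor of endoderm on chromosome 14 from 22052243 to 22054044, was listed at 0 in both pools. FOXA2, a forkhead factor that opens chromatin in endoderm, on chromosome 13 from 41534663 to 41537205, was 0.125 FPKM in siRNA-injected embryos, against 0.102 FPKM in sham-injected embryos. At these levels a difference between the pools could not be read, and no fold is given for GATA4 and SOX17.

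**Figure D2:**
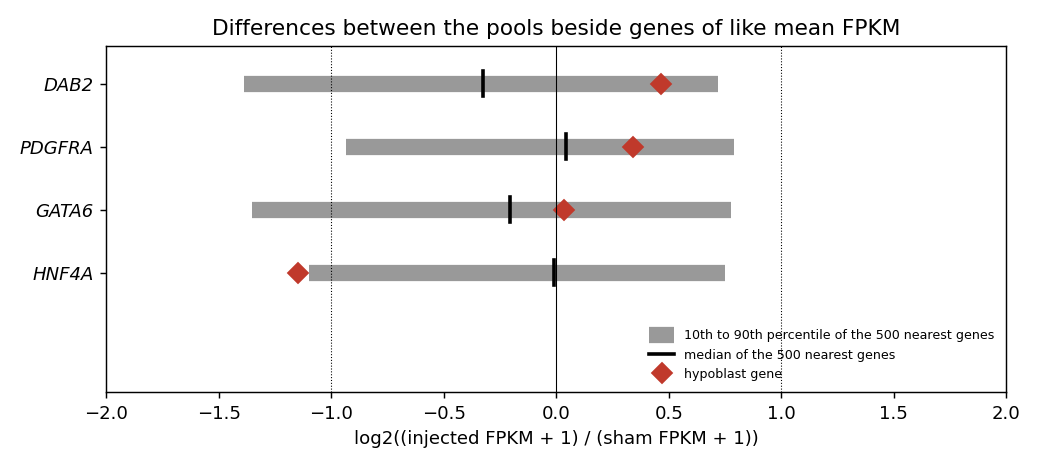
Log2 difference, injected over sham after adding 1 FPKM (horizontal), of the 4 expressed hypoblast genes (red diamonds), 1 library per pool. Grey bars span the 10th to 90th percentile of the 500 genes nearest in mean FPKM, black ticks are their medians and dotted lines mark 2-fold: HNF4A, at -1.15, lies just outside its bar, and GATA6, PDGFRA and DAB2 lie inside theirs.

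Other endoderm transcription factors were also low. Of 12 listed, 3, namely SOX7, FOXA1 and MIXL1, were at 0 in both pools and 2 were expressed. SALL4, a zinc finger factor shared by hypoblast and epiblast in the mouse, was 1.79 FPKM in the CDKN1C siRNA pool, against 3.74 FPKM in the sham pool. OTX2, a homeobox factor of visceral endoderm and later of the forebrain, was 4.74 FPKM with CDKN1C siRNA and 5.68 FPKM with sham injection. Both differences were negative and less than 2-fold after adding 1, and that of OTX2 was positive, at 0.11, with totals made equal. FOXA3, a relative of FOXA2, was 0.181 FPKM in the CDKN1C siRNA pool, against 1.71 FPKM in the sham pool, with a mean just under 1 FPKM, and is named after its value was seen.

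Among the other GATA factors and their cofactors, GATA2, a trophectoderm factor, was far above GATA6. GATA2 was 379 FPKM with CDKN1C siRNA and 461 FPKM with sham injection, and GATA3, of the same lineage, was 11.4 FPKM in siRNA-injected embryos, against 18.9 FPKM in sham-injected embryos. LMO2, a cofactor that bridges GATA factors to other proteins, was 1.79 FPKM in the CDKN1C siRNA pool, against 4.13 FPKM in the sham pool. Of 8 such genes in the files, these 3 were expressed. All 3 were lower in the injected pool and 0 of them passed 2-fold, with a median log2 difference of -0.69. GATA2 changed sign, at 0.11, with totals made equal, and the median was -0.31. GATA5, the third endodermal GATA factor, was 0.206 FPKM with CDKN1C siRNA and 0.339 FPKM with sham injection.

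PDGFRA, the receptor tyrosine kinase for PDGF that marks hypoblast cells in the mouse, was low and somewhat higher after siRNA injection. It lies on chromosome 6 from 72263794 to 72311565. Its level was 2.58 FPKM in siRNA-injected embryos, against 1.82 FPKM in sham-injected embryos, a ratio of 1.42 and a log2 difference of 0.34. Equal totals made the ratio 1.86 and the difference 0.59. Of the 500 genes nearest in mean FPKM, 153 were as high or higher, so this difference lay within their usual spread. PDGFA, its main ligand in the early embryo, was 30.5 FPKM in the CDKN1C siRNA pool, against 17.5 FPKM in the sham pool. PDGFA was thus more abundant than its receptor in both pools, and its log2 difference of 0.77 was positive like that of PDGFRA. Equal totals put PDGFA at 1.14, past 2-fold. PDGFC was listed at 0.545 FPKM in the injected pool and at 0 in the sham pool, and the related receptor PDGFRB at 0 in the injected pool and at 0.0319 FPKM in the sham pool.

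The FGF and ERK pathway, which favours hypoblast over epiblast, held genes that differed in both directions. FGF4, the ligand made by the epiblast, was listed at 0 in the injected pool and at 0.362 FPKM in the sham pool. FGFR2, the receptor prominent in hypoblast and trophectoderm, was 2.02 FPKM with CDKN1C siRNA and 1.85 FPKM with sham injection, and FGFR1 was 0.724 FPKM in siRNA-injected embryos, against 0.686 FPKM in sham-injected embryos. Ligand and receptor RNA was thus low in both pools. SPRY2, a feedback inhibitor induced by this pathway, was 10.04 FPKM in the CDKN1C siRNA pool, against 3.91 FPKM in the sham pool. Its relative SPRY4 was also higher, at 2.31 FPKM with CDKN1C siRNA and 0.869 FPKM with sham injection. DUSP6 was lower, at 5.06 FPKM with CDKN1C siRNA and 7.05 FPKM with sham injection. ETV4, ETV5 and EGR1 were under 1 FPKM in both pools. PTPN11, a phosphatase that relays the signal, was 21.4 FPKM with CDKN1C siRNA and 11.5 FPKM with sham injection. The kinase genes MAPK3 and MAP2K2 were lower after injection, MAPK3 at 0.575 FPKM in siRNA-injected embryos, against 2.98 FPKM in sham-injected embryos, which alone made it count as expressed, and MAP2K2 at 2.11 FPKM in the CDKN1C siRNA pool, against 5.02 FPKM in the sham pool. Of 13 expressed pathway genes, 1 was 2-fold or more higher and 1 as much lower after adding 1, where all genes had 4.92% and 15.7%. The median log2 difference of the 13 was 0.18. With totals made equal, 3 were 2-fold or more higher and 1 as much lower, where all genes had 11.4% and 7.10%, and the median was 0.52.

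DAB2, the endocytic adaptor, was the most abundant of the 9 genes. It lies on chromosome 20 from 37119052 to 37179157. Its level was 43.0 FPKM with CDKN1C siRNA and 30.9 FPKM with sham injection, a ratio of 1.39 and a log2 difference of 0.46. Equal totals made the ratio 1.83 and the difference 0.85. It stood above 94.2% of all symbols in the injected pool and above 91.8% in the sham pool. Among the 500 genes nearest in mean FPKM, whose median difference was -0.33, 82 were as high or higher. DAB2 therefore lay in the upper part of genes of its level and inside their 10th to 90th percentile.

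The RNAs of cubilin and its partner amnionless were at or near 0. CUBN, on chromosome 13 from 31053630 to 31312338, was 0.00619 FPKM in siRNA-injected embryos, against 0.0135 FPKM in sham-injected embryos, and AMN, on chromosome 21 from 67751620 to 67762225, was listed at 0 in both. LRP2, or megalin, the large endocytic receptor that works with cubilin and also binds DAB2, was 82.5 FPKM in the CDKN1C siRNA pool, against 52.7 FPKM in the sham pool. LRP2 was thus above DAB2 in both pools and higher after injection, with a log2 difference of 0.64. LRPAP1, a chaperone of that receptor family, was the other way round, at 66.5 FPKM with CDKN1C siRNA and 167 FPKM with sham injection.

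The clathrin coat and its AP-2 adaptor held the lowest differences among the endocytic partners. AP2S1, the small AP-2 subunit, was 29.4 FPKM in siRNA-injected embryos, against 138 FPKM in sham-injected embryos, and the clathrin light chain gene CLTB was 32.6 FPKM in the CDKN1C siRNA pool, against 124 FPKM in the sham pool. The heavy chain gene CLTC was 17.8 FPKM with CDKN1C siRNA and 17.2 FPKM with sham injection. MYO6, a motor that moves endocytic vesicles, was higher after injection, at 2.74 FPKM in siRNA-injected embryos, against 1.23 FPKM in sham-injected embryos. Of 12 expressed partners, 0 were 2-fold or more higher and 3, AP2S1, CLTB and LRPAP1, as much lower. All genes had 4.92% and 15.7%, and the median log2 difference of the partners was -0.31. With totals made equal, 1 partner was 2-fold or more higher and 2 as much lower, where all genes had 11.4% and 7.10%. The median was then -0.02. In the handling of vitamin B12, a ligand of the cubilin system, 2 of 8 expressed genes were 2-fold or more lower and 0 as much higher. All genes had 15.7% lower and 4.92% higher. The median of the 8 was -0.06, which was 0.27 with totals made equal. The 2 lower genes were CD320, the receptor for B12 bound to transcobalamin, at 16.9 FPKM in the CDKN1C siRNA pool, against 48.3 FPKM in the sham pool, and MMAB, which makes the mitochondrial cofactor form, at 7.40 FPKM with CDKN1C siRNA and 17.9 FPKM with sham injection. With equal totals CD320 was the only one past 2-fold, and MMAB was at -0.80. MMADHC, which directs B12 within the cell, was 21.4 FPKM in siRNA-injected embryos, against 17.4 FPKM in sham-injected embryos, and MUT, the mutase that uses it, was 6.996 FPKM in the CDKN1C siRNA pool, against 6.18 FPKM in the sham pool.

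Genes of the basement membrane that primitive and parietal endoderm lay down, listed together with genes of collagen processing, were better represented than the lineage factors. Of 16 listed, 13 were expressed, 3 of these were 2-fold or more higher in the injected pool and 0 as much lower, where all genes had 4.92% and 15.7%, and the median log2 difference was 0.13. With totals made equal, 4 were 2-fold or more higher, against 11.4% of all genes, and the median was 0.50. The basement membrane linker gene NID2 was 16.1 FPKM with CDKN1C siRNA and 3.42 FPKM with sham injection, and the collagen lysine hydroxylase gene PLOD2 was 2.56 FPKM in siRNA-injected embryos, against 0.170 FPKM in sham-injected embryos, so that PLOD2 counted as expressed through the injected pool alone. SERPINH1, a collagen chaperone, was the other gene past 2-fold, at 9.10 FPKM in the CDKN1C siRNA pool, against 2.48 FPKM in the sham pool. As SERPINH1 and PLOD2 serve collagen processing, NID2 was the only component of the membrane itself past 2-fold higher as deposited. LAMB1 and LAMC1, laminin chains, were both on the higher side after injection, with log2 differences of 0.79 and 0.39, while LAMA1, the third chain of the same laminin, had -0.34. P4HA2 and COL4A1, a prolyl hydroxylase and a type IV collagen chain, had the lowest differences, -0.56 and -0.48. Many cells other than hypoblast make these proteins, trophectoderm among them.

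The RNAs of proteins secreted by visceral endoderm were mostly at or near 0. Of 20 in the files, 7 were at 0 in both pools, AFP, TTR and ALB among them, and 4 were expressed. APOM, an apolipoprotein gene known as a target of HNF4A in liver, was 4.35 FPKM with CDKN1C siRNA and 13.3 FPKM with sham injection, past 2-fold lower after adding 1. APOE, another apolipoprotein gene, was 2.35 FPKM in siRNA-injected embryos, against 3.88 FPKM in sham-injected embryos, and RSPO3, which strengthens WNT signals, was 1.39 FPKM in the CDKN1C siRNA pool, against 1.99 FPKM in the sham pool. FGG, the fibrinogen gamma chain, was higher after injection, at 5.36 FPKM with CDKN1C siRNA and 2.21 FPKM with sham injection. The median log2 difference of the 4 genes was -0.43, and -0.15 with totals made equal. Of 14 known HNF4A targets in the files, APOM was the only expressed one, and 4 were at 0 in both pools, so only 1 gene of that list could be compared.

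**Figure D3:**
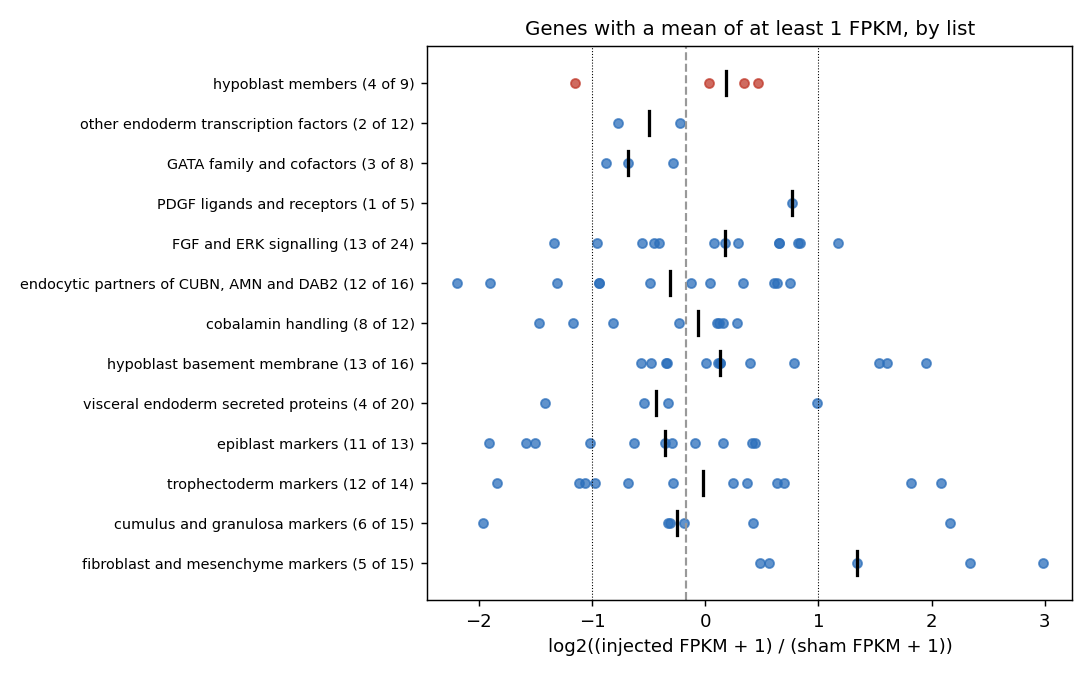
Log2 differences, injected over sham after adding 1 FPKM (horizontal), of expressed genes (mean of 1 FPKM or more) in 13 lists (rows, with the number plotted of those in the files); red points are the hypoblast genes, blue points the other lists, and a gene may stand in 2 lists. Black ticks are list medians, the grey dashed line is the median of all genes, -0.17, and dotted lines mark 2-fold: 9 of the 13 lists reach to both sides of 0.

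Ratios of the genes to each other do not depend on how the pools are scaled. HNF4A was 0.0826 of GATA6 in the injected pool and 0.276 of GATA6 in the sham pool. Against DAB2 it was 0.0269 in the injected pool and 0.122 in the sham pool. The ratio of PDGFRA to DAB2 was nearly the same in both, 0.0600 in the injected pool and 0.0590 in the sham pool. DAB2 was 3.07 times GATA6 in the injected pool and 2.26 times GATA6 in the sham pool. The shift of HNF4A relative to the other 3 genes thus holds under any common scale, and the injected-to-sham ratios of those 3 lay within 1.38-fold of each other.

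Of the markers listed for the other lineages of the blastocyst, 11 of 13 for epiblast and 12 of 14 for trophectoderm were expressed. The cells that this RNA came from are not shown by whole-embryo pools. NANOG, SOX2 and POU5F1, listed here as epiblast markers, were lower after injection as deposited. NANOG was 15.1 FPKM in siRNA-injected embryos, against 23.9 FPKM in sham-injected embryos. SOX2 was 4.37 FPKM in the CDKN1C siRNA pool, against 5.87 FPKM in the sham pool. POU5F1 was 56.3 FPKM with CDKN1C siRNA and 170.1 FPKM with sham injection. With totals made equal, their log2 differences were -0.25, -0.02 and -1.18, so that of SOX2 was close to none. GATA6 and NANOG, set against each other in the mouse inner cell mass, were thus at 14.0 and 15.1 FPKM in the injected pool and at 13.7 and 23.9 FPKM in the sham pool. Of 11 expressed epiblast markers, 0 were 2-fold or more higher and 4 as much lower, where all genes had 4.92% and 15.7%. The median of the 11 was -0.36. Of the lower 4, GDF3, ESRRB and PRDM14 were under 1 FPKM in the injected pool and counted as expressed through the sham pool alone. With totals made equal 3 were 2-fold or more lower, against 7.10% of all genes, and the median was -0.06. The lowest were GDF3 and POU5F1, with log2 differences of -1.91 and -1.58, and the highest DPPA4 and DPPA3, with 0.44 and 0.41. Of 12 expressed trophectoderm markers, 2 were 2-fold or more higher, IFNT2 and IFNT3, near-identical interferon tau copies whose reads may be shared, while KRT8, CDX2 and KRT18 were as much lower. The shares of all genes were 4.92% higher and 15.7% lower, and the median of the 12 markers was -0.02. Equal totals gave 3 higher and 1 lower, where all genes had 11.4% and 7.10%, and a median of 0.37. CDX2 and KRT18 were then within 2-fold and PTGS2, a prostaglandin synthase gene, at 1.01.

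Markers of other cells that use these genes were looked at beside them. Fibroblasts use PDGFRA: of 15 fibroblast and mesenchyme markers, 5 were expressed and 3 of these were 2-fold or more higher in the injected pool, against 4.92% of all genes and 11.4% with equal totals. LUM, one of them, was 4.77 FPKM with CDKN1C siRNA and 0.138 FPKM with sham injection and counted as expressed through the injected pool alone. The summed level of the 15 markers was 86.7 FPKM in siRNA-injected embryos, against 32.3 FPKM in sham-injected embryos. Most of it came from 3 genes, given here as injected and sham FPKM: S100A4 (37.5 and 14.2), ACTA2 (22.6 and 15.0) and VIM (18.5 and 1.46). THY1, POSTN, TAGLN, PRRX1 and TWIST1 were under 1 FPKM in both pools. VIM and LUM, an intermediate filament and a matrix proteoglycan gene, had log2 differences of 2.99 and 2.34 and COL1A2 and ACTA2, of type I collagen and smooth muscle actin, 0.49 and 0.56, while COL1A1 was at 0 in both pools and COL3A1 was 0.190 FPKM in the CDKN1C siRNA pool, against 0.00526 FPKM in the sham pool. PDGFRA was 1.42-fold higher in the same pool, and the part of such cells in its level was not tested. Granulosa cells use GATA4 and GATA6: of 15 cumulus and granulosa markers, FOXL2, AMH, AMHR2 and PTX3 were at 0 in both pools, and 6 were expressed, with a median log2 difference of -0.25, which was 0.06 with totals made equal. They ran from HSD3B1, a steroidogenic enzyme gene, at -1.97, and CYP11A1, at -0.33, up to INHBA at 0.42 and GATM, at 1 FPKM or more in the injected pool alone, at 2.17, and the sum of the 15 was 23.5 FPKM with CDKN1C siRNA and 31.6 FPKM with sham injection. Liver, kidney and gut use HNF4A: of 13 such markers in the files, 6 were at 0 in both pools, ALB and FABP2 among them, and LGALS4, a galectin of gut epithelium, was the only expressed one, at 197 FPKM in siRNA-injected embryos, against 444 FPKM in sham-injected embryos. Of 9 blood markers, 3 were at 0 in both pools and only HBA, a globin gene, was expressed, at 12.96 FPKM in the CDKN1C siRNA pool, against 13.2 FPKM in the sham pool. The part of these cells in the levels of GATA6 and HNF4A was not tested, nor was the part of trophectoderm in those of DAB2 and GATA6.

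The surroundings of the genes differed in a way that ran with the differences. Around DAB2, PDGFRA and GATA6, 7, 8 and 16 other loci with a symbol lay within 1 Mb, and around HNF4A there were 46. Over all 7984 genes, those with 0 to 16 such loci had a median log2 difference of 0.22, those with 17 to 28 of 0.02, those with 29 to 53 of -0.39 and those with 54 to 121 of -0.64. When the median of each of these 4 sets was set to 0, HNF4A was at -0.76 and no longer past 2-fold, and 14.0% of the others in that set were as low or lower. In the same setting, DAB2 was at 0.25 and PDGFRA at 0.13, while GATA6 changed sign, at -0.18. With 16 such loci GATA6 stood at the upper edge of its set, so this sign depends on where the sets were cut. By locus length, the shortest of 4 sets had a median of -0.52 and the longest 0.12. PDGFRA and DAB2 fell in the longest set and GATA6 and HNF4A, of similar length, in the third, where 6.62% of the others were as low as HNF4A or lower. The part of local gene number or length in each difference was not tested.

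**Figure D4:**
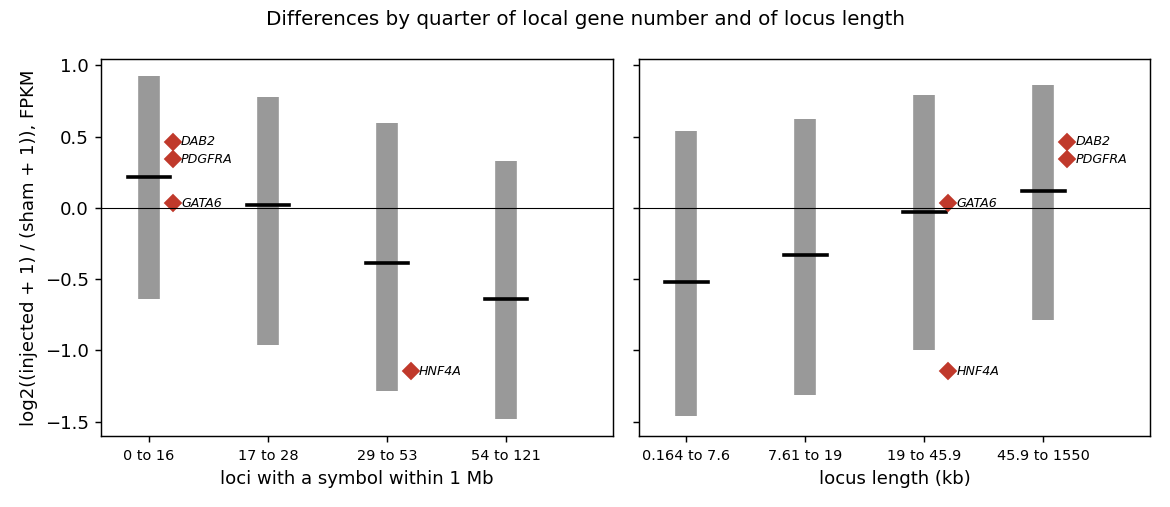
Log2 differences, injected over sham after adding 1 FPKM (vertical), of all 7984 genes in 4 sets by the number of loci with a symbol within 1 Mb (left) and by locus length in kb (right). Grey bars span the 10th to 90th percentile, black ticks are medians and red diamonds are the 4 hypoblast genes: the medians go down from 0.22 to -0.64 as local gene number goes up, and HNF4A lies low in its set in both panels.

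None of the 9 loci overlapped another locus of the files. The nearest expressed genes did not follow a common direction with them. On the sides of HNF4A, C13H20orf111 had a log2 difference of -0.60 and SERINC3 of 0.07. GATA6 lay between RBBP8, a DNA end resection gene, at 0.68, and SNRPD1, of the spliceosome, at 0.53. PDGFRA lay between FIP1L1, of the polyadenylation machinery, at -0.08, and KIT, another receptor tyrosine kinase gene, at 1.24, with 9.96 FPKM with CDKN1C siRNA and 3.63 FPKM with sham injection. DAB2 had no such gene within 1 Mb, and the nearest, TTC33 and WDR70, were at 0.49 and -0.14. The genes at or near 0 had neighbours that were read: 5.30 kb from CUBN, RSU1 was 25.9 FPKM in siRNA-injected embryos, against 9.49 FPKM in sham-injected embryos, and 1.70 kb from AMN, CDC42BPB was 1.57 FPKM in the CDKN1C siRNA pool, against 1.35 FPKM in the sham pool. NEIL2, a DNA glycosylase gene 6.07 kb from GATA4, was 2.32 FPKM with CDKN1C siRNA and 3.64 FPKM with sham injection.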

How the data were processed

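Total RNA of 1 pool of CDKN1C-siRNA-injected and 1 pool of sham-injected embryos was amplified before sequencing. The authors mapped reads to bosTau7 with TopHat and made the deposited FPKM values with Cufflinks 2.0.2, scaling each library by its upper quartile and weighting reads for sequence bias. The gene annotation is not given in the sources used here. Amplification and upper-quartile scaling both bear on differences between the pools, and amplification also on levels of genes within a pool. Loci with the same symbol were summed and the 615 of 22220 loci without one were left out. The difference was log2((injected + 1)/(sham + 1)) over symbols with a mean of at least 1 FPKM. With 1 library per pool no test was run and the depth is unknown. Calculations were checked on data with 4-fold changes planted in genes above the levels of GATA6, PDGFRA and HNF4A. The check thus does not cover the 2-fold limit at those lower levels. The 9 genes and 15 other lists were chosen with earlier results of these data known. All 9 genes are named, with known partners and, from each other list, the 2 highest and 2 lowest differences. Further genes were chosen after their values were seen. Alternatives were pseudocounts, filters, folds, scalings and the highest locus in place of the sum. The corrections by 4 sets of locus length and of local gene number were added after seeing the data. The 9 symbols were also found in RefSeq's ARS-UCD2.0 table, on the same chromosomes. Python 3.11.15, pandas 2.3.3, NumPy 2.4.6 and matplotlib 3.10.9 were used.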

Additional observations from a re-analysis of the deposited data

How the results depend on the processing

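The count of hypoblast genes at least 2-fold lower was 1 as reported and 0 with a pseudocount of 5 FPKM, with the median of all genes set to 0, with equal totals, with a mean of at least 5 FPKM, at 4-fold, and with the median of each of 4 sets of genes by local gene number set to 0. The log2 difference of HNF4A was -0.51, -0.98, -0.84 and -0.76 with that pseudocount, those 2 scalings and those sets, and -1.62 with a pseudocount of 0.1 FPKM. GATA6 was at -0.18 against its set by local gene number and between 0.03 and 0.40 otherwise, and the median of the 4 genes ran from -0.03 in that setting to 0.49 with equal totals. Among all genes, the share higher by the fold was 8.67% with a pseudocount of 0.1 FPKM, 1.49% with 5 FPKM, 7.72% with the median set to 0, 11.4% with equal totals, 2.69% with no filter, 0.413% at 4-fold and 7.63% by 4 sets of locus length. The share lower was 7.49% with a pseudocount of 5 FPKM, 7.10% with equal totals, 8.30% with no filter, 1.05% at 4-fold, 8.92% by 4 sets of locus length and 7.65% by 4 sets of local gene number. The depth is unknown, and SOX17 and AMN, at 0, and GATA4, FOXA2 and CUBN, near 0, allow no difference to be read. No paired analysis was possible because each group holds 1 pool.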
